A study of Mus musculus with 17 samples.

Results

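The 39 genes described here encode the heat shock chaperones and the unfolded protein response. They were taken by symbol from a count table of 53379 genes, where each matched 1 gene ID, and all 39 passed the filter on low counts. The heat shock arm has 15 genes, of which 13 act in the cytosol and 2, Hspd1 and Hspe1, in the mitochondrion. The ER arm has 24 genes of the endoplasmic reticulum (ER) stress response.

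The libraries are poly(A) RNA of kidney cortex enriched for glomeruli, from 17 mice of the BTBR strain with 1 library each. The atrasentan group was 7 ob/ob mice given this endothelin A receptor antagonist at 5 mg/kg/day in drinking water for 6 weeks, and their genotype label is 'BTBR ob'. The saline group was 5 ob/ob mice given saline over the same 6 weeks, labelled 'ob/ob-d30'. Treatment began at 18 weeks of age and ended at 24 weeks. The wild type group was 5 BTBR mice of that age with no listed treatment, labelled 'WT-d30'. The sources used here do not explain the "d30" in these names. Mice of both ob/ob groups lack leptin in the whole body, through the ob mutation of Lep, and become obese and diabetic, so neither group models a defect made in the kidney alone. Libraries are numbered in the order of deposition, and the numbers pair nothing.

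Cells respond to unfolded protein in different compartments by separate circuits. In the cytosol, the transcription factor HSF1 binds heat shock elements and turns on HSP70, HSP40, HSP90, HSP110 and small heat shock proteins. In the ER, the sensors IRE1 (Ern1), PERK (Eif2ak3) and ATF6 are held by the chaperone BiP (Hspa5). When unfolded protein draws BiP away, IRE1 splices Xbp1 mRNA, ATF6 is cut to a transcription factor, and PERK slows translation while ATF4 and CHOP (Ddit3) are made. Podocytes, endothelium and tubule cells of the diabetic kidney are known to engage parts of this response. A gene-level count does not show splicing of Xbp1, cleavage of ATF6 or phosphorylation by PERK.

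Gene reads per library ran from 37252939 to 52528747 with atrasentan, from 35938445 to 40268662 with saline and from 29161833 to 40965108 in wild type. Every atrasentan library had fewer genes with a read (21396 to 23081) than any saline (24335 to 25313) or wild type library (23901 to 24877). Reads outside genes made up 3.17% to 5.65% of those in atrasentan libraries, 5.95% to 8.17% in saline libraries and 6.26% to 8.58% in wild type libraries. Library numbers in the labels run group by group, with 1 batch given, so order of preparation and group cannot be told apart. All 20 podocyte genes listed passed the filter in these libraries. All 20 proximal tubule genes listed did too, so passing the filter does not test the tissue label. Wild type library 2 stood above the other wild type libraries in most heat shock genes, and saline libraries 1 and 3 held the most proximal tubule RNA, so results that rest on them are given with and without them. In these bulk samples, fewer cells of a type and less RNA per cell cannot be told apart.

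Few of the 39 genes passed the test in any comparison. With edgeR's quasi-likelihood test at an adjusted p under 0.05, 10 were called in at least 1 comparison, 5 in each arm, and 29 in none. The count over all comparisons was not made for all genes, whose shares are given for each comparison. In atrasentan against saline mice 1 rose, the inducible HSP70 gene Hspa1b, and 1 fell, the mitochondrial chaperonin Hspd1, where 33.8% of all 17766 genes tested were called (15.3% higher and 18.5% lower). In saline against wild type mice the ER degradation gene Herpud1 rose, and the small heat shock proteins Hspb8 and Cryab fell, beside 5.12% of all genes (3.21% higher and 1.91% lower). In atrasentan against wild type mice Bag3, Eif2ak3, Dnajc3, Pdia3 and Sel1l rose and Cryab and Hspb8 fell, beside 29.2% of all genes (14.7% higher and 14.5% lower). The share of the 39 genes called was 5.13%, 7.69% and 17.9% in these comparisons, taken in the same order, and the share was above that of all genes only in saline against wild type, where 3 genes were called. At an unadjusted p under 0.05 the counts were 6 higher and 3 lower, 4 higher and 3 lower, and 6 higher and 3 lower. Those of all 17766 genes were 3754 higher and 4219 lower, 2365 higher and 1460 lower, and 3589 higher and 3663 lower. The saline libraries enter 2 of the comparisons, as do the wild type and the atrasentan libraries, so the comparisons are not independent.

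**Figure D1:**
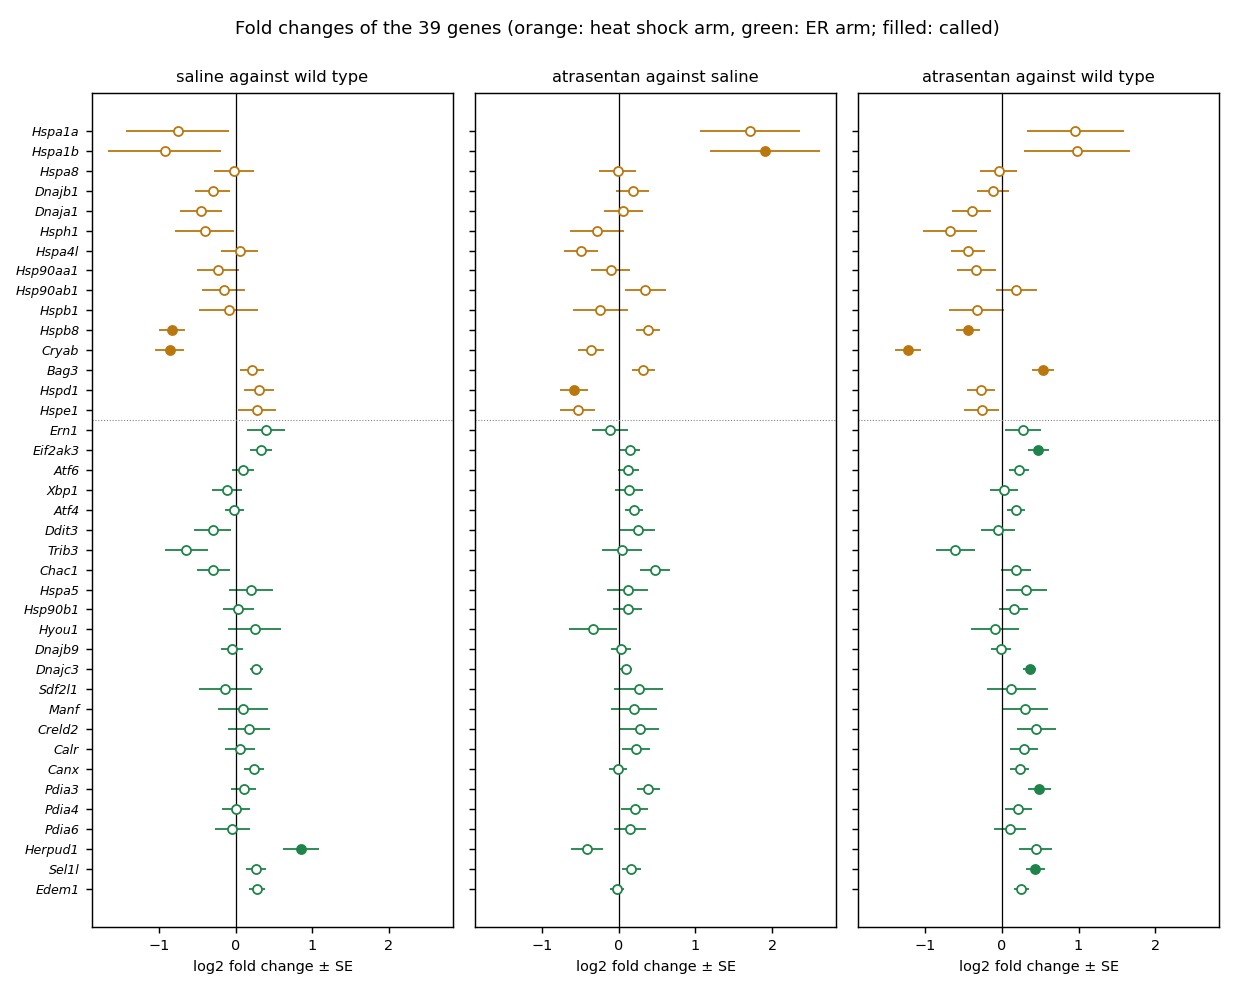
Log2 fold changes (x axis, ± SE) of the 39 genes (y axis), in order of role, for saline against wild type, atrasentan against saline and atrasentan against wild type mice. Filled points passed an adjusted p under 0.05 (edgeR), which 3, 2 and 7 genes did, and the widest errors are those of Hspa1a and Hspa1b.

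The inducible cytosolic HSP70 proteins bind exposed hydrophobic stretches of unfolded protein, and Hspa1a and Hspa1b are the genes most strongly induced by heat in many cells. They lie next to each other at chr17:34969190-34972156 and chr17:34956436-34959238 (GRCm38, both on the minus strand). Hspa1b had a lowest value of 26.6, a median of 139 and a highest value of 259 CPM with atrasentan, where CPM is the read count scaled to the reads in genes of each library. It had 21.0, 54.4, 27.9, 42.6 and 16.1 CPM in saline mice 1 to 5, and 60.2, 188, 19.8, 32.9 and 6.04 CPM in wild type mice 1 to 5. Atrasentan libraries 3, 5, 6 and 7 stood above the other 3, which lay close to the saline mice. Of the 7 atrasentan libraries 5 were above every saline library and 2 were above every wild type library.

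Hspa1b rose with atrasentan against saline by a log2 fold change of 1.90 ± 0.72 (SE, edgeR adjusted p = 0.0488). This call rests close to the threshold: it was lost in 15 of 26 other settings, among them the removal of atrasentan library 3, 5, 6 or 7, of saline library 1, 3, 4 or 5, or of wild type library 1 or 4, with adjusted p of 0.0543 to 0.106 when 1 of these was left out. Hspa1a had 18.7, 112 and 169 CPM as lowest, median and highest values with atrasentan. It had 20.5, 39.1, 27.4, 35.2 and 15.9 CPM in saline mice and 39.3, 136, 20.8, 31.2 and 5.86 CPM in wild type mice. Its difference of 1.71 ± 0.65 between atrasentan and saline did not pass (edgeR adjusted p = 0.0516), and passed under 7 of the 26 other settings. Immediate early genes, which handling and tissue dissociation induce, moved in the same comparison: of 20, 14 fell and none rose, and their sums of 4814 to 7028 CPM in atrasentan mice and 9031 to 20394 CPM in saline mice did not overlap. None of them was at 0 in a group, and their part in the stress gene values was not tested.

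Between atrasentan and wild type mice the differences were 0.98 ± 0.69 for Hspa1b and 0.96 ± 0.63 for Hspa1a, with edgeR adjusted p of 0.303 and 0.271. Wild type library 2 held the highest wild type value of both genes. Without it the differences were 2.03 ± 0.67 and 1.90 ± 0.61, and both passed (edgeR adjusted p = 0.0347 and 0.0304). That library was singled out after its high values were seen. Both passes therefore follow from leaving it out and are no further evidence of a rise. Between saline and wild type mice the differences were -0.92 ± 0.73 and -0.75 ± 0.67 with that library, and 0.12 and 0.18 without it, none of which passed.

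The 2 genes share most of their sequence. Of all stretches of 50 bases, the read length, 62.3% in Hspa1b and 60.4% in Hspa1a occur in another annotated gene, and 1716 stretches are common to both. Reads that aligned to several places were not counted for any gene, so the level of each is understated and comes from the stretches that are its own. The constitutive HSP70 gene Hspa8, the everyday folding and clathrin-uncoating member, shares 38.6% of its stretches, mostly with pseudogenes. It had medians of 46.0, 47.9 and 45.0 CPM in atrasentan, saline and wild type mice and was called in no comparison.

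**Figure D2:**
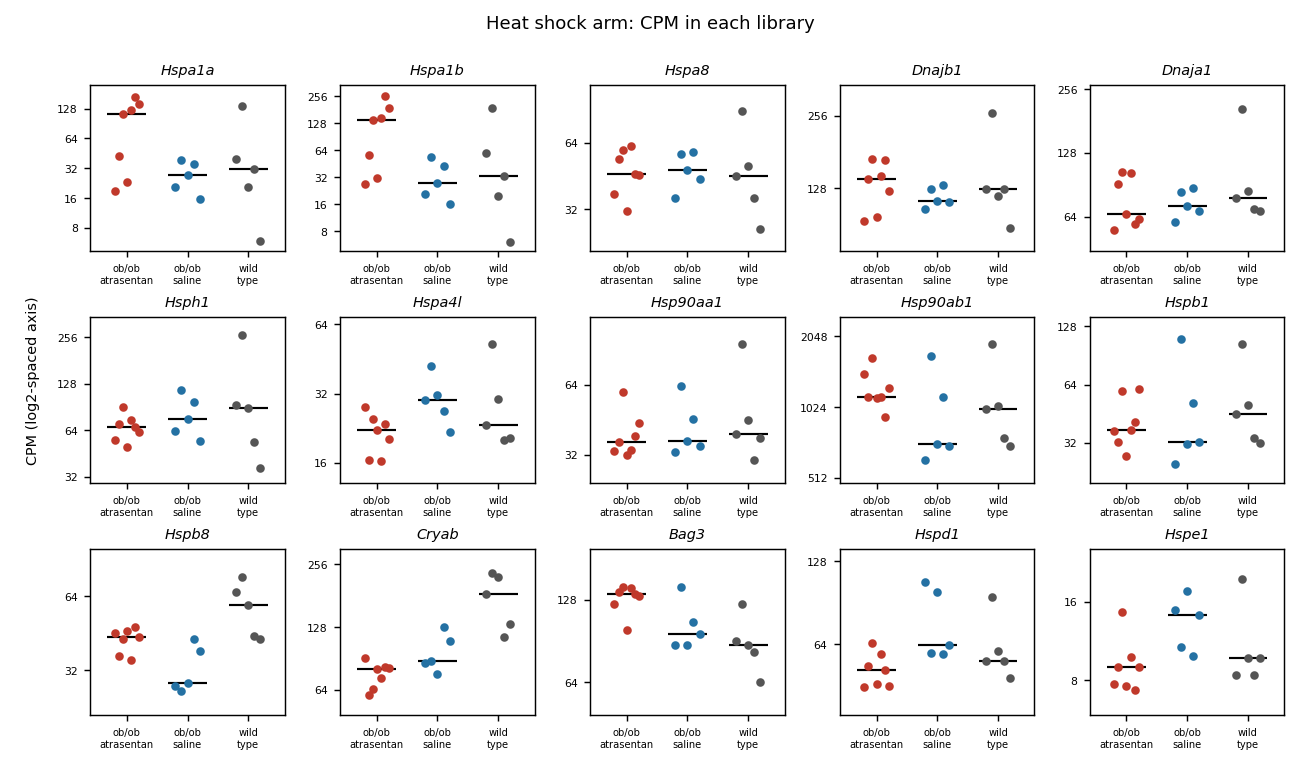
CPM of the 15 heat shock arm genes in each library (y axis, log2-spaced) for atrasentan (7), saline (5) and wild type mice (5), with a bar at the median of each group. Hspa1a and Hspa1b are far higher in 4 atrasentan mice than in the other 3, Cryab is lower in all 7 atrasentan mice than in any wild type mouse, and 1 wild type library stands highest in most panels.

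The J-domain proteins Dnajb1 and Dnaja1 hand clients to HSP70, Hsph1 and Hspa4l (HSP110 family) exchange its nucleotide, and Hsp90aa1 and Hsp90ab1 finish the folding of kinases and steroid receptors. None of these 6 genes was called in any comparison. Their differences lay between -0.49 and 0.35 in atrasentan against saline mice, between -0.45 and 0.05 in saline against wild type mice, and between -0.68 and 0.19 in atrasentan against wild type mice. Hsp90aa1 had a lowest value of 31.8, a median of 36.2 and a highest value of 59.7 CPM with atrasentan. It had 32.8, 63.0, 36.5, 45.4 and 34.9 CPM in saline mice and 39.3, 96.1, 45.0, 30.2 and 37.7 CPM in wild type mice. The groups overlapped, and 1 library in each (atrasentan 3, saline 2 and wild type 2) stood above all the others. Its differences were -0.11 ± 0.25, -0.22 ± 0.27 and -0.33 ± 0.25 in atrasentan against saline, saline against wild type and atrasentan against wild type mice (edgeR adjusted p = 0.771, 0.704 and 0.343).

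Hsp90ab1 had the highest mean level per length of the 39 genes in every group, at 411 ± 79.9, 323 ± 150 and 360 ± 161 CPM per kilobase of exon in atrasentan, saline and wild type mice (SD, n = 7, 5 and 5). Saline library 2 lifted the saline mean, with 1686 CPM against 610 to 1127 CPM in the other saline mice. Calr, with 2880 bases of exon against 2999, had more CPM than Hsp90ab1 in saline libraries 1, 3 and 5. In wild type mice Calr (295 ± 76.6), Hspa5 (258 ± 110) and Pdia3 (206 ± 48.6) followed, each within the spread of its neighbour. The sensor Ern1 was the lowest there, at 1.42 ± 0.224 CPM per kilobase. Of Hsp90aa1, 47.5% of the stretches of 50 bases occur elsewhere, against 3.44% of Hsp90ab1, so their levels are not equally well counted.

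The small heat shock proteins hold unfolded clients without ATP, and Bag3, a co-chaperone of HSP70, passes clients of Hspb8 to autophagy. Cryab, alpha-B crystallin (chr9:50751325-50756636, plus strand), had the largest fall of the 39 genes against wild type. It had a lowest value of 60.5, a median of 80.3 and a highest value of 90.8 CPM with atrasentan. It had 86.2, 88.1, 76.4, 128 and 110 CPM in saline mice and 184, 233, 223, 114 and 133 CPM in wild type mice. All 7 atrasentan mice were below all wild type mice, while 4 of the 5 saline mice were.

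Cryab fell by 1.22 ± 0.17 on the log2 scale in atrasentan against wild type mice (edgeR adjusted p = 8.95e-05), a call kept in all 26 other settings. It fell by 0.86 ± 0.19 in saline against wild type mice (edgeR adjusted p = 0.0201), a call that was lost without saline library 1 or 3 or wild type library 2 or 3 (edgeR adjusted p of 0.0528 to 0.0629) and without saline libraries 1 and 3 together (-0.71 ± 0.22, adjusted p = 0.206). Without both saline libraries, 36 of all 18380 genes were called higher and 18 lower. Between atrasentan and saline mice the Cryab difference of -0.36 ± 0.17 did not pass (edgeR adjusted p = 0.113). Exons of Cryab overlap those of Hspb2 on the opposite strand, and the library kit does not mark strand. Hspb2, another small heat shock protein, averaged 1.28 ± 0.349 CPM with atrasentan and 2.46 ± 0.857 CPM in wild type (SD, n = 7 and 5). It fell by 0.94 ± 0.28 on the log2 scale (edgeR adjusted p = 0.0185), a call lost without wild type library 2 or 3 (edgeR adjusted p = 0.0511 and 0.0618).

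Hspb8 (chr5:116408491-116422864, minus strand) had 35.1, 43.6 and 47.8 CPM as lowest, median and highest values with atrasentan. It had 27.6, 26.3, 28.2, 42.8 and 38.3 CPM in saline mice and 66.6, 76.6, 59.2, 44.0 and 42.8 CPM in wild type mice. Of the saline mice 4 were below every wild type mouse, and of the 7 atrasentan mice 2 were. Hspb8 fell by 0.82 ± 0.17 on the log2 scale in saline against wild type mice (edgeR adjusted p = 0.0150), a call lost without saline libraries 1 and 3 together (-0.70 ± 0.20, adjusted p = 0.152), where 36 of all 18380 genes were called higher and 18 lower. It fell by 0.44 ± 0.16 in atrasentan against wild type mice (edgeR adjusted p = 0.0391), a call lost in 9 of 26 other settings, with adjusted p between 0.0544 and 0.134, among them the removal of atrasentan library 2, 3, 5 or 7 or wild type library 1, 2 or 3. Between atrasentan and saline mice it was 0.38 ± 0.16 (edgeR adjusted p = 0.0710).

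Podocyte markers fell in the 2 comparisons where Cryab and Hspb8 were called lower. Of 20 podocyte genes, 9 fell and none rose in saline against wild type mice, 18 fell and none rose in atrasentan against wild type mice, and 8 fell and none rose in atrasentan against saline mice. In atrasentan against saline mice Cryab (-0.36 ± 0.17) and Hspb8 (0.38 ± 0.16) were not called. Hspb8 differed there in the other direction, with 5 of 7 atrasentan mice above every saline mouse. The sum of the 20 lay at 3006 to 6298 CPM in atrasentan mice, 5717 to 11056 CPM in saline mice and 10139 to 15929 CPM in wild type mice, and no marker was at 0 in a group. The part of podocyte content in the values of Cryab and Hspb8 was not tested apart from a fit with podocyte minus proximal tubule markers as a covariate. In that fit the difference between saline and wild type mice was -0.51 ± 0.24 for Cryab and -0.57 ± 0.23 for Hspb8 (edgeR adjusted p = 0.681 and 0.551). Only 1 of all 17766 genes was called there, so the loss of these calls is not particular to Cryab and Hspb8. Both calls against wild type with atrasentan were kept. In atrasentan against wild type mice the median log2 difference was -1.76 for the podocyte and -1.24 for the proximal tubule markers. Their difference therefore holds only part of the podocyte fall there, and the kept calls do not test the part of podocyte content.

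Bag3 (chr7:128523616-128546981, plus strand) had 99.5, 135 and 143 CPM as lowest, median and highest values with atrasentan. It had 87.5, 142, 87.8, 106 and 96.3 CPM in saline mice and 90.6, 123, 87.2, 82.9 and 64.2 CPM in wild type mice. Of the atrasentan mice 6 of 7 were above every wild type mouse. Bag3 rose by 0.54 ± 0.15 in atrasentan against wild type mice (log2, edgeR adjusted p = 0.0119), and was called in all 26 other settings. Hspb1 (HSP25 of the mouse), the third small heat shock protein, differed by -0.33 to -0.09 over the comparisons and was called in none, and 48.8% of its stretches of 50 bases occur in its pseudogene Hsp25-ps1.

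Hspd1 (HSP60) and Hspe1 (HSP10) form the folding chamber of the mitochondrial matrix and are transcribed in opposite directions from 1 shared promoter on chromosome 1. Hspd1 had a lowest value of 44.7, a median of 51.7 and a highest value of 64.7 CPM with atrasentan. It had 108, 59.4, 99.2, 58.9 and 63.7 CPM in saline mice and 55.5, 95.0, 60.3, 55.6 and 48.4 CPM in wild type mice. Saline libraries 1 and 3 stood well above the other saline libraries, which overlapped the atrasentan mice. Hspd1 fell by 0.58 ± 0.18 on the log2 scale in atrasentan against saline mice (edgeR adjusted p = 0.0211). Hspe1 differed in the same comparison by -0.54 ± 0.23, which did not pass (edgeR adjusted p = 0.0779).

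The Hspd1 call was lost without saline library 1 (-0.43 ± 0.17, edgeR adjusted p = 0.0770), without saline library 3 (-0.48 ± 0.19, adjusted p = 0.0752) and without both (-0.22 ± 0.16, adjusted p = 0.387). These 2 libraries also held the highest sums of 20 proximal tubule markers, 15804 and 14882 CPM, against 3306 to 8297 CPM in the other saline mice, 537 to 3191 CPM with atrasentan and 1877 to 4005 CPM in wild type. Of the 20 markers 17 fell and none rose in atrasentan against saline mice, and 7 rose and 1 fell in saline against wild type mice. With podocyte minus proximal tubule markers as a covariate the Hspd1 difference was -0.03 ± 0.20 (edgeR adjusted p = 0.934).

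Part of the shared Hspd1 and Hspe1 promoter is shown because the letters of 1 heat shock element lie in the windows of both genes. The motif was searched as GAA, TTC and GAA, or TTC, GAA and TTC on the other strand, with 2 free bases between the triplets, in RefSeq promoter windows of 250 bases before to 50 bases after each start site (GRCm38.p6). Capitals mark overlapping matches within the printed stretch, chr1:55088051-55088084, and the lines give the plus strand before Hspe1 and the minus strand before Hspd1.
Hspe1: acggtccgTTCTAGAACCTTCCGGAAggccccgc
Hspd1: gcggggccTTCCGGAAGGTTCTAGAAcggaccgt
The element starts 89 bases before the Hspe1 start and 144 bases before a start of Hspd1. It was found in 3 of the 11 heat shock genes with a window, Hspd1, Hspe1 and Hsph1, and in 0 of 21 ER genes with a window, against 0.662% of 27025 genes. Atf6, Cryab, Hsp90aa1, Hsp90ab1, Hspa8, Hyou1 and Manf had no window. A match is a description of letters and not a measured binding site.

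Of the 3 sensors of the ER arm, 1 was called. Eif2ak3, which encodes PERK (chr6:70844515-70905245, plus strand), had a lowest value of 34.8, a median of 40.9 and a highest value of 62.4 CPM with atrasentan. It had 35.8, 43.3, 38.4, 39.4 and 37.0 CPM in saline mice and 34.8, 26.8, 32.6, 35.7 and 24.2 CPM in wild type mice. All 5 saline mice and 6 of 7 atrasentan mice were above every wild type mouse. Eif2ak3 rose by 0.48 ± 0.14 in atrasentan against wild type mice (log2, edgeR adjusted p = 0.0144), called in all 26 other settings. In saline against wild type mice its difference of 0.33 ± 0.15 did not pass (edgeR adjusted p = 0.193), and in atrasentan against saline mice it was 0.14 ± 0.14 (adjusted p = 0.426).

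Ern1 (IRE1) differed by -0.12 ± 0.23, 0.39 ± 0.25 and 0.28 ± 0.23 in atrasentan against saline, saline against wild type and atrasentan against wild type mice, and Atf6 by 0.13 ± 0.13, 0.10 ± 0.14 and 0.22 ± 0.13. None of these passed. Atrasentan libraries 2 and 5 had the 2 lowest Ern1 values of all 17, 8.85 and 6.59 CPM. The same 2 libraries had 8.71 and 4.12 CPM of Hyou1, the nucleotide exchange factor of BiP, against 20.7 to 26.0 CPM in the other atrasentan mice, 19.3 to 29.2 CPM with saline and 16.4 to 22.3 CPM in wild type. Without these 2 libraries Ern1, the lectin Canx and the mannosidase-like Edem1 were also called higher in atrasentan against wild type mice, and the count of ER genes called higher was 7 in place of 4, where 16.2% of all genes were called higher. The 2 libraries were left out after their values were seen. They also held the 2 lowest atrasentan values of Canx (397 and 408 CPM) and of Edem1 (86.3 and 85.6 CPM). The added calls therefore follow from the choice of libraries and are no further evidence of a rise.

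Transcription factors of the response were not called. Xbp1, the factor made by IRE1 splicing, had 333, 389 and 454 CPM as lowest, median and highest values with atrasentan, against 294, 426, 323, 428 and 333 CPM in saline mice and 393, 629, 408, 250 and 272 CPM in wild type mice. Atf4, the translationally controlled factor below PERK, had 122, 155 and 201 CPM with atrasentan, against 120, 154, 111, 151 and 134 CPM in saline mice and 137, 149, 140, 134 and 117 CPM in wild type mice. Ddit3, the factor CHOP tied to cell death, had 25.2, 36.3 and 46.0 CPM with atrasentan, against 22.0, 38.5, 28.1, 31.7 and 26.1 CPM in saline mice and 31.3, 62.8, 36.5, 20.9 and 28.6 CPM in wild type mice. The groups overlapped for all 3 genes.

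Their differences were 0.14 ± 0.18, 0.20 ± 0.12 and 0.25 ± 0.22 in atrasentan against saline mice (Xbp1, Atf4 and Ddit3), -0.11 ± 0.20, -0.02 ± 0.13 and -0.30 ± 0.24 in saline against wild type mice, and 0.03 ± 0.18, 0.18 ± 0.12 and -0.05 ± 0.22 in atrasentan against wild type mice. The sign of Ddit3 against wild type with atrasentan, of Atf4 with saline and of Xbp1 in all comparisons changed under other settings. Exons of Ddit3 overlap Mars and Gm4189 on the opposite strand. Of the targets of ATF4, Chac1, which degrades glutathione, differed by 0.47 ± 0.20, -0.29 ± 0.21 and 0.18 ± 0.20 in atrasentan against saline, saline against wild type and atrasentan against wild type mice. Trib3, a pseudokinase induced with CHOP, differed by 0.04 ± 0.26, -0.64 ± 0.28 and -0.61 ± 0.26, and neither gene passed in any comparison.

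**Figure D3:**
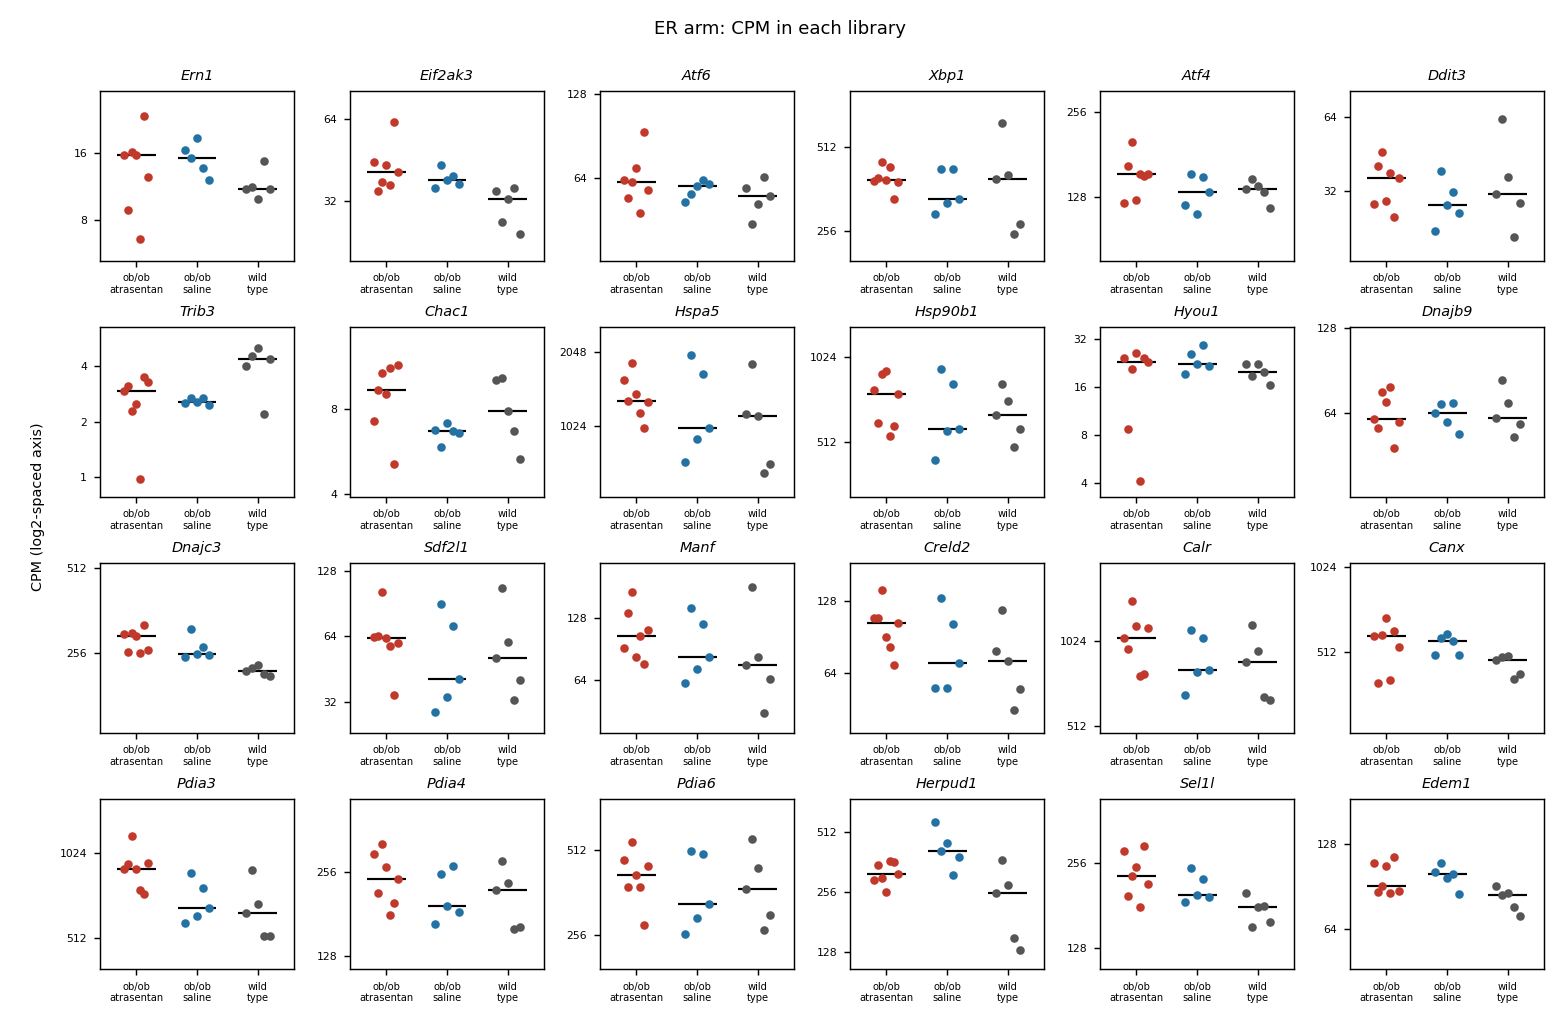
CPM of the 24 ER arm genes in each library (y axis, log2-spaced) for atrasentan (7), saline (5) and wild type mice (5), with a bar at the median of each group. Dnajc3 is higher in every atrasentan and saline mouse than in any wild type mouse, Herpud1 has its highest values with saline, and Hyou1 and Ern1 are low in 2 atrasentan libraries.

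BiP, encoded by Hspa5 (chr2:34771970-34777547, plus strand), is the main HSP70 of the ER. Hspa5 had 1004, 1294 and 1836 CPM as lowest, median and highest values with atrasentan. It had 730, 1984, 906, 1660 and 998 CPM in saline mice and 1145, 1818, 1125, 659 and 715 CPM in wild type mice. The 3 groups overlapped, and saline libraries 2 and 4 were above all other saline libraries. Its differences were 0.12 ± 0.27, 0.20 ± 0.29 and 0.32 ± 0.27 in atrasentan against saline, saline against wild type and atrasentan against wild type mice, and none passed (edgeR adjusted p = 0.761, 0.754 and 0.398).

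Of the 8 ER chaperones and co-chaperones, Dnajc3 (p58IPK, an ER-luminal J-domain partner of BiP, chr14:118937976-118981697, plus strand) was the one called. It had 256, 294 and 322 CPM as lowest, median and highest values with atrasentan. It had 248, 311, 254, 268 and 252 CPM in saline mice and 221, 227, 231, 216 and 212 CPM in wild type mice. Every mouse of both ob/ob groups was above every wild type mouse. Dnajc3 rose by 0.36 ± 0.08 in atrasentan against wild type mice (log2, edgeR adjusted p = 0.00285), called in all 26 other settings.

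In saline against wild type mice the Dnajc3 difference of 0.27 ± 0.09 did not pass (edgeR adjusted p = 0.0745) and passed with DESeq2. Dnajc3 also had the smallest spread between mice of 1 group of the 39 genes, an SD of 0.12 on the log2 scale. Hsp90b1, Hyou1, Dnajb9, Sdf2l1, Manf and Creld2, which are the ER HSP90, partners of BiP and secreted or ER-resident folding factors, differed by -0.34 to 0.27 with atrasentan against saline, by -0.13 to 0.25 with saline against wild type and by -0.09 to 0.45 with atrasentan against wild type. Without wild type library 2, Manf passed against wild type with atrasentan, at 0.72 ± 0.26 (edgeR adjusted p = 0.0456) in place of 0.30 ± 0.30. That library held the highest wild type value of Manf, so the pass follows from leaving it out.

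Of the 5 lectins and disulfide isomerases that fold glycoproteins, Pdia3 (ERp57, the partner of calnexin and calreticulin, chr2:121413775-121438687, plus strand) was called. It had 737, 903 and 1175 CPM as lowest, median and highest values with atrasentan. It had 578, 869, 615, 771 and 654 CPM in saline mice and 631, 891, 677, 521 and 519 CPM in wild type mice. Of the atrasentan mice 5 of 7 were above every wild type mouse and every saline mouse. Pdia3 rose by 0.49 ± 0.15 in atrasentan against wild type mice (log2, edgeR adjusted p = 0.0215), a call lost without wild type library 4 or 5 (edgeR adjusted p = 0.0619 and 0.0649) and with upper-quartile scaling (0.42 ± 0.16, adjusted p = 0.0573). Against saline its difference of 0.38 ± 0.15 did not pass (edgeR adjusted p = 0.0575). Calr, Canx, Pdia4 and Pdia6 were called in no comparison and differed from wild type with atrasentan by 0.10 to 0.29.

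Herpud1, Sel1l and Edem1 act in ER-associated degradation, which sends misfolded protein back to the cytosol. Herpud1 (chr8:94386438-94395377, plus strand) had 257, 316 and 367 CPM as lowest, median and highest values with atrasentan. It had 580, 413, 451, 311 and 383 CPM in saline mice and 254, 370, 278, 150 and 131 CPM in wild type mice. Of the saline mice 4 of 5 were above every wild type mouse, and saline libraries 1 and 3, the 2 with the most proximal tubule markers, held the 2 highest values.

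Herpud1 rose by 0.85 ± 0.23 in saline against wild type mice (log2, edgeR adjusted p = 0.0423). The call was lost in 12 of 26 other settings, with adjusted p between 0.0502 and 0.824. These were the removal of atrasentan library 1 or 3, of saline library 1, 3 or 5, of both saline libraries 1 and 3 (0.63 ± 0.25, edgeR adjusted p = 0.366), or of wild type library 1, 3, 4 or 5, a fit on these 2 groups alone and the marker covariate. The part of tubule content in it was not tested otherwise. Against wild type with atrasentan it was 0.44 ± 0.21 (edgeR adjusted p = 0.131), and against saline -0.41 ± 0.21 (edgeR adjusted p = 0.137).

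Sel1l, the scaffold of the HRD1 ligase (chr12:91806043-91849157, minus strand), had 179, 231 and 294 CPM as lowest, median and highest values with atrasentan. It had 187, 246, 197, 225 and 194 CPM in saline mice and 201, 152, 179, 181 and 158 CPM in wild type mice. Of the atrasentan mice 5 of 7 were above every wild type mouse, as were 2 of 5 saline mice. Sel1l rose by 0.43 ± 0.12 in atrasentan against wild type mice (log2, edgeR adjusted p = 0.0138), called in all 26 other settings. Edem1 differed by 0.25 ± 0.10 there (edgeR adjusted p = 0.0583).

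Some promoters of the ER genes held the ER stress element. The genes were chosen as known genes of this response, so its presence is described here and is not independent of that choice. The ER stress element, bound by ATF6 with NF-Y, was searched as CCAAT and CCACG with 9 free bases between them, on both strands, in the same windows. It was found in 7 of the 21 ER genes with a window and in 0 of the 11 heat shock genes, against 0.137% of 27025 genes. The matches are shown with 10 bases on each side because, of the motifs searched, it was found in the most of the 39 genes. Capitals mark the element, which reads on the opposite strand in Calr, Creld2 and the second Hsp90b1 site.
Hspa5: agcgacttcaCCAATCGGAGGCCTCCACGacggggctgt
Calr: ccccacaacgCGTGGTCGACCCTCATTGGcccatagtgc
Canx: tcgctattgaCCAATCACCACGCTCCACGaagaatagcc
Creld2: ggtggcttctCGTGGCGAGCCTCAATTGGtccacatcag
Dnajc3: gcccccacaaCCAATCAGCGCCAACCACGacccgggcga
Hsp90b1, first site: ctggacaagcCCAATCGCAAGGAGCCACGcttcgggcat
Hsp90b1, second site: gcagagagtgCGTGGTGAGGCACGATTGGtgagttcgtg
Pdia6: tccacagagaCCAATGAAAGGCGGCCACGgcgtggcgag
The elements start 65 bases (Hspa5) to 212 bases (Hsp90b1, first site) before the start sites. The printed stretches, flanks included, lie at chr2:34772015-34772053 for Hspa5, chr8:84847065-84847103 for Calr, chr11:50325790-50325828 for Canx, chr15:88819510-88819548 for Creld2, chr14:118937817-118937855 for Dnajc3, chr10:86705628-86705666 and chr10:86705523-86705561 for Hsp90b1, and chr12:17266481-17266519 for Pdia6, with the minus strand shown for Calr, Canx and Hsp90b1. Of these 7 genes Dnajc3 was called in a comparison and the other 6 were not.

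The 250 bases before the Hspa5 start site (chr2:34771840-34772089, plus strand) are printed whole, as the standard example of an ER stress promoter, with the full element in capitals.
Hspa5 promoter: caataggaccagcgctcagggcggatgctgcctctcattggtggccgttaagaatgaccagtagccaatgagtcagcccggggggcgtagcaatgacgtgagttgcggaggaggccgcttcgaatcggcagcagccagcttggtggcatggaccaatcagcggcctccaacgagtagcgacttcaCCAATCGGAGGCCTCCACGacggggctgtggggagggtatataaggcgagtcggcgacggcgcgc
The element TGACGTGG, bound by XBP1 and ATF6, whose last letters read as the end of the ER stress element on the other strand, was in none of the 32 windows and in 0.714% of all genes. The ATF4 composite element TGATGNAA was in 3 of 21 ER genes, Chac1, Herpud1 and Trib3, and in 0 of 11 heat shock genes, against 4.51% of all genes. Its reverse strand is in capitals for Chac1 (printed stretch chr2:119351039-119351066, plus strand) and Herpud1 (printed stretch chr8:94386307-94386334, plus strand), shown because both are known as targets of ATF4.
Chac1: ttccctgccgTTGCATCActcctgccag
Herpud1: ccacggcgggTTGCATCAgcccgcaccc
No match says only that these letters are not in these windows.

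The arms were then set side by side. The median log2 difference of the 15 heat shock genes was -0.01 in atrasentan against saline mice, -0.22 in saline against wild type mice and -0.28 in atrasentan against wild type mice. The median of the 24 ER genes was 0.14, 0.10 and 0.23 in the same order, and that of all genes tested was -0.01, 0.01 and -0.01. Against wild type with atrasentan 20 of 24 ER genes and 4 of 15 heat shock genes had a positive difference. The heat shock values rest on wild type library 2. Without it the heat shock median was 0.18 in saline against wild type mice and 0.054 in atrasentan against wild type mice, and that of the ER genes was 0.21 and 0.28. In atrasentan against wild type mice 22 of 24 ER genes and 10 of 15 heat shock genes then had a positive difference. The heat shock median minus the ER median was -0.15 in atrasentan against saline mice (-0.25 to -0.075 when 1 library was left out), -0.32 in saline against wild type mice (-0.41 to -0.031) and -0.51 in atrasentan against wild type mice (-0.60 to -0.23). With the marker covariate that of atrasentan against saline turned to 0.086, and in the other settings tried all 3 stayed negative. No test was made of the arms as sets.

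Per library, the mean log2 CPM of the heat shock arm averaged 6.02 ± 0.29 in atrasentan mice, 5.88 ± 0.26 in saline mice and 6.02 ± 0.68 in wild type mice (SD, n = 7, 5 and 5). Without wild type library 2 the wild type mean was 5.75 ± 0.35 (n = 4). That of the ER arm was 6.92 ± 0.17, 6.82 ± 0.22 and 6.71 ± 0.28, and 6.62 ± 0.22 in wild type without that library. The groups overlapped in both arms. In atrasentan against saline mice edgeR and DESeq2 called 0 of the 24 ER genes and limma-voom called 1, with 2 higher and 0 lower at an unadjusted p under 0.05 in edgeR. Of all 17766 genes edgeR had 3754 higher and 4219 lower at that unadjusted threshold. Wild type library 2 had the highest heat shock mean of all 17 libraries, 7.12, against 5.27 to 6.05 in the other wild type mice. It was the highest library of all for 10 of 15 heat shock genes and 6 of 24 ER genes. Wild type libraries 4 and 5 had the 2 lowest ER means, 6.41 and 6.45, and library 5 was the lowest of all libraries for 12 of the 39 genes.

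**Figure D4:**
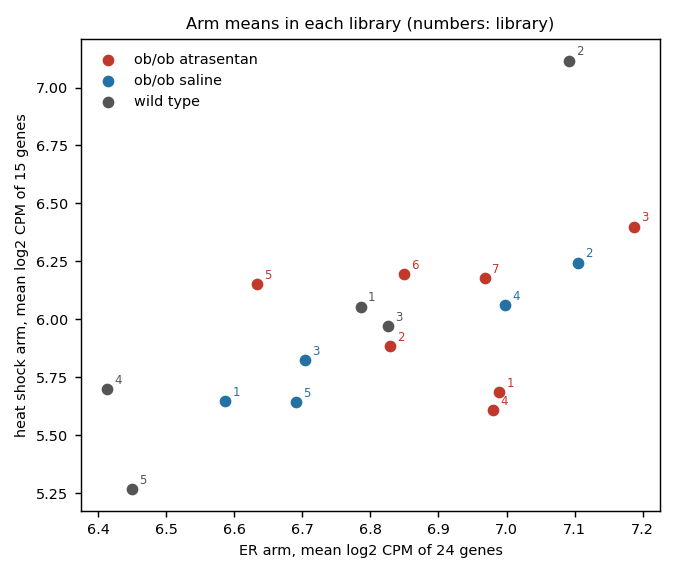
Mean log2 CPM of the 24 ER arm genes (x axis) and of the 15 heat shock arm genes (y axis) in each library, with the library number beside each point and atrasentan (7), saline (5) and wild type mice (5) in separate colours. Wild type library 2 stands highest on the y axis at 7.12, and wild type libraries 4 and 5 are lowest on the x axis at 6.41 and 6.45.

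Wild type library 2 bears on the comparisons with wild type. Without it 9 of the 39 genes were called higher and 1 lower in atrasentan against wild type mice, in place of 5 and 2, which is 25.6% of them beside 26.9% of all genes in that fit. Hspa1a, Hspa1b, Manf and Herpud1 joined those called higher, and Hspb8 was no longer called (-0.32 ± 0.15, edgeR adjusted p = 0.134). Wild type library 2 held the highest wild type value of each of these genes. The changed calls therefore follow from leaving it out, and the added ones are no further evidence of a rise. In atrasentan against saline mice, where it enters through the shared estimate of spread, 6 genes were called without it, 15.4% of the 39 beside 33.8% of all genes: Hspa1a, Hspa1b and Pdia3 rose and Hspa4l, Hspd1 and Hspe1 fell. Its summed immediate early genes were 7373 CPM, within the 5754 to 15594 CPM of the other wild type mice. Of the reads of wild type library 2, 28.1% had several alignments, against 23.4% to 26.4% in the other wild type mice. Reads outside genes were 6.26%, against 7.81% to 8.58%, and its 23901 genes with a read were the fewest in wild type. Whether these measures, or a stress of that mouse or of its sample, lie behind its heat shock values was not tested.

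The spread between mice of a group was compared between the arms. The median over genes of the SD within groups was 0.45 on the log2 scale for the heat shock arm, 0.34 for the ER arm and 0.33 for all genes tested. Without wild type library 2 these were 0.31, 0.31 and 0.33, so the wider spread of the heat shock arm rests on that library. Hspa1b (1.36) and Hspa1a (1.26) had the widest spread of the 39 genes, followed by Hyou1 (0.68) and Hsph1 (0.65). Dnajc3 (0.12), Edem1 (0.16) and Atf4 (0.20) had the narrowest.

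Genes that varied together were described by Pearson's r of log2 CPM over the 17 libraries after each group's mean was taken off, for all 741 pairs. The libraries share their depth and cell make-up, which also enter r. The median r was 0.56 for the 105 pairs within the heat shock arm, 0.38 for the 276 pairs within the ER arm and 0.38 for the 360 pairs between arms. Without wild type library 2 it was 0.26, 0.35 and 0.25, so the higher value within the heat shock arm rests on that library. Within the ER arm, the 13 folding genes (chaperones, lectins and disulfide isomerases) had a median r of 0.70 among themselves (-0.24 to 0.97), and 0.64 without that library. The 3 sensors had r of 0.63 to 0.78 with each other. With the folding genes their r ran from -0.68 to 0.78, with a median of -0.12, so some folding genes varied with the sensors. The 7 genes with the ER stress element had a median r of 0.71 among themselves, close to that of all folding genes. The lowest r, -0.68, was between Atf6 and Dnajb9, with a rho of -0.47 (adjusted permutation p = 0.0330 for r and 0.212 for rho), and r was -0.43 without the 2 libraries farthest from the median of Atf6.

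Hspa1a was nearest to Hspa1b (r = 0.99, Spearman's rho = 0.98, adjusted permutation p = 0.000274 and 0.000436 over the 741 pairs), and r was 0.98 without the 2 libraries farthest from the median. Hspa5 was nearest to the ER factor Creld2 (r = 0.97, rho = 0.93, r without 2 libraries 0.94) and Ddit3 to Manf (0.97, 0.94 and 0.94). The raw permutation p of r was 1e-05 for these 3 pairs, the smallest that 100000 permutations can give. Hsp90aa1 was also nearest to Manf (r = 0.92, rho = 0.84, permutation p = 0.0001, adjusted 0.00120, r without 2 libraries 0.83). Xbp1 was nearest to Hsph1, a gene of the other arm (r = 0.91, rho = 0.88, permutation p = 0.00094, adjusted 0.00585, r without 2 libraries 0.83).

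Hspd1 was nearest to Hspe1, whose promoter it shares (r = 0.82, rho = 0.70, permutation p = 0.00044, adjusted 0.00333, r without 2 libraries 0.77). Exons of these 2 genes overlap on opposite strands, and reads there cannot be told apart. Reads set down as ambiguous between genes were counted for none. Atf4 was nearest to Bag3 (r = 0.74, rho = 0.82, permutation p = 0.00017, adjusted 0.00175, r without 2 libraries 0.87).

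**Figure D5:**
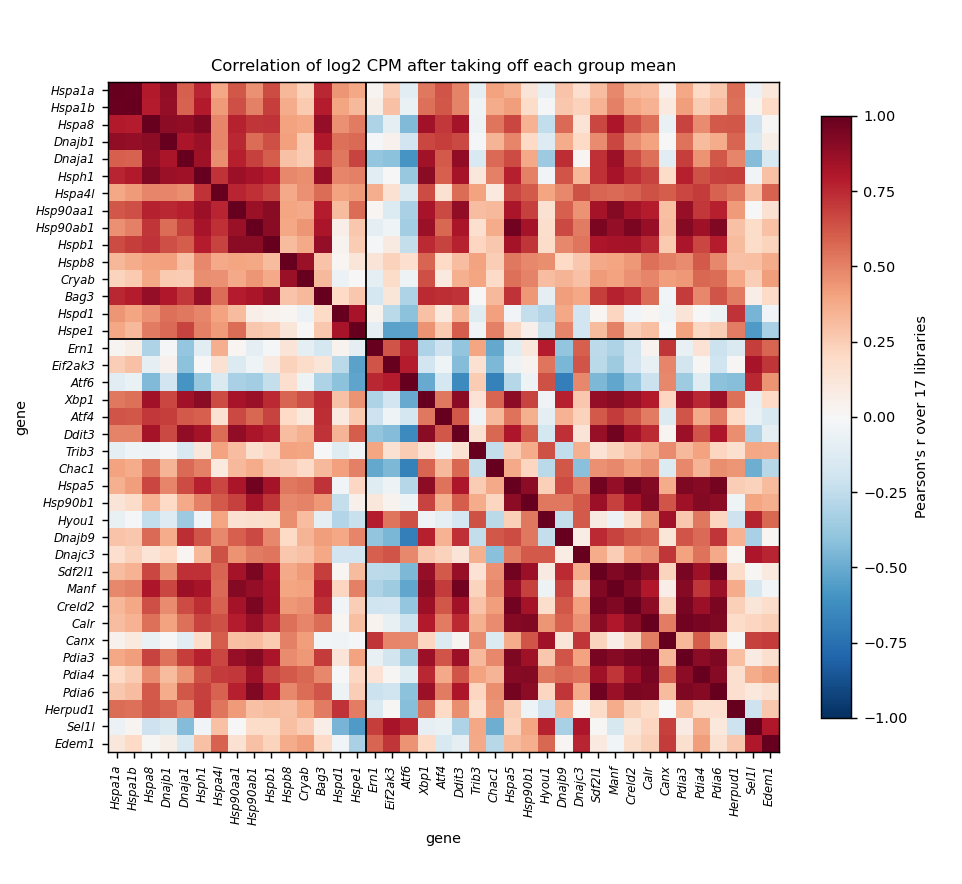
Pearson's r of log2 CPM for each pair of the 39 genes (both axes, in order of role) over 17 libraries after each group's mean was taken off, from -1 (blue) to 1 (red), with lines between the heat shock and ER arms. The folding genes of the ER have a median r of 0.70 among themselves (-0.24 to 0.97). The sensors Ern1, Eif2ak3 and Atf6 have a median r of -0.12 with them (-0.68 to 0.78).

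Other genes of the same pathways were read from lists that hold none of the 39. Of 40 other heat shock genes (cofactors of HSP90, other J-domain proteins, the TRiC chaperonin and the HSF factors), 4 rose and 4 fell in atrasentan against saline mice, 1 rose and none fell in saline against wild type mice, and 5 rose and 3 fell in atrasentan against wild type mice. The shares called higher and lower were 10% and 10% against saline and 12.5% and 7.50% against wild type with atrasentan, below those of all genes in each. Hsf2, a heat shock transcription factor, averaged 1.48 ± 0.179 CPM with atrasentan and 3.81 ± 0.231 CPM with saline (SD, n = 7 and 5), a fall of 1.36 ± 0.15 on the log2 scale (edgeR adjusted p = 6.89e-05). Unc45a, a myosin chaperone and HSP90 partner, rose by 0.74 ± 0.13 and Hspa9, the mitochondrial HSP70, fell by 0.74 ± 0.17 in that comparison (edgeR adjusted p = 0.000663 and 0.00418). The Hspa9 call was lost without saline libraries 1 and 3 (-0.30 ± 0.12, edgeR adjusted p = 0.0911) and with the marker covariate (-0.13 ± 0.16, edgeR adjusted p = 0.662).

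Fkbp5, an HSP90 co-chaperone and glucocorticoid target, averaged 250 ± 110 CPM with atrasentan, 255 ± 162 CPM with saline and 66.9 ± 37.4 CPM in wild type (SD, n = 7, 5 and 5). It rose by 1.90 ± 0.42 in atrasentan against wild type mice and by 1.93 ± 0.44 in saline against wild type mice (log2, edgeR adjusted p = 0.00298 and 0.0242). The call with saline was lost in 7 of 26 other settings, the removal of saline library 1 or 3 or wild type library 1, 4 or 5 among them. Hsf2 also fell by 1.38 ± 0.15 on the log2 scale in atrasentan against wild type mice (edgeR adjusted p = 1.08e-05).

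Of 41 other ER folding and degradation genes tested, 9 rose and none fell in atrasentan against saline mice, and 9 rose and none fell in atrasentan against wild type mice. In saline against wild type mice edgeR, DESeq2 and limma-voom called 0, and at an unadjusted p under 0.05 edgeR had 0 higher and 1 lower. Of all 17766 genes edgeR had 2365 higher and 1460 lower at that unadjusted threshold. The 9 genes are 22.0% of the list in both comparisons with atrasentan, beside 15.3% of all genes called higher against saline and 14.7% against wild type. The list medians were 0.15, -0.0039 and 0.11, beside -0.01, 0.01 and -0.01 over all genes. Os9, a lectin of ER-associated degradation, averaged 243 ± 9.83 CPM with atrasentan, 176 ± 5.94 CPM with saline and 174 ± 18.4 CPM in wild type (SD, n = 7, 5 and 5). Its rise was 0.46 ± 0.07 against saline and 0.48 ± 0.07 against wild type (log2, edgeR adjusted p = 0.000314 and 0.000136). Mbtps1, the protease that makes the first cut in ATF6, rose by 0.53 ± 0.12 against saline and 0.57 ± 0.12 against wild type (edgeR adjusted p = 0.00368 and 0.00245). With the marker covariate the Mbtps1 difference against saline was 0.51 ± 0.17, close to that without it, and the call was lost (edgeR adjusted p = 0.0810).

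Selenok, a selenoprotein of the ER membrane, rose against saline by 0.46 ± 0.16 (edgeR adjusted p = 0.0296), a call lost in 8 of 26 other settings, among them the removal of atrasentan library 3, 5 or 7 or saline library 1 or 3. Txndc5, a disulfide isomerase, rose against wild type with atrasentan by 0.43 ± 0.09 (edgeR adjusted p = 0.00206). Beside these, 10 of 15 endothelial, 8 of 15 mesangial or smooth muscle and 12 of 15 macrophage markers rose in atrasentan against saline mice and none of the 3 lists had a fall. Their part in the rises of ER genes was not tested.

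Of 31 other genes of the integrated stress response tested, which ATF4 controls or which act beside PERK, 6 rose and 8 fell in atrasentan against saline mice, 4 rose and none fell in saline against wild type mice, and 9 rose and 2 fell in atrasentan against wild type mice. The shares called higher and lower were 19.4% and 25.8% in atrasentan against saline mice, beside 15.3% and 18.5% of all genes, and 29.0% and 6.45% in atrasentan against wild type mice, beside 14.7% and 14.5%. In saline against wild type mice 12.9% were called higher, beside 3.21% of all genes. In atrasentan against saline mice the serine synthesis genes Phgdh and Psat1 and the cysteine gene Cth had log2 differences of -1.76 ± 0.29, -1.25 ± 0.35 and -2.96 ± 0.55, and all 3 fell (edgeR adjusted p = 0.000425, 0.0118 and 0.000893). Psat1 was no longer called without saline libraries 1 and 3 (edgeR adjusted p = 0.237). With the marker covariate the differences of Phgdh and Psat1 were -0.83 ± 0.35 and -0.49 ± 0.49, and neither passed (edgeR adjusted p = 0.149 and 0.562). In saline against wild type mice Sesn2, a stress-induced inhibitor of mTORC1, rose by 1.11 ± 0.16, the serine enzyme Shmt2 by 0.97 ± 0.22 and Phgdh by 1.12 ± 0.32 (edgeR adjusted p = 0.00238, 0.0236 and 0.0496). None of these 3 calls was kept with the marker covariate, where 1 of all 17766 genes was called. The differences were then 1.01 ± 0.23 for Sesn2, 0.13 ± 0.21 for Shmt2 and 0.11 ± 0.37 for Phgdh (edgeR adjusted p = 0.194, 0.937 and 0.979). That of Sesn2 thus changed little in size.

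The calls of Shmt2 and Phgdh with saline were lost without saline libraries 1 and 3, at 0.42 ± 0.14 and 0.60 ± 0.32 (edgeR adjusted p = 0.237 and 0.567), and also without saline library 1 or 3 alone. Over the 26 other settings that of Shmt2 was lost in 8, among them without wild type library 1, 2, 3 or 5, and that of Phgdh in 20. In atrasentan against wild type mice Gdf15, a secreted stress hormone, rose, and Stc2, a secreted glycoprotein, and Atf5, a factor of the mitochondrial response, fell, with log2 differences of 1.58 ± 0.48, -1.87 ± 0.34 and -0.74 ± 0.22 (edgeR adjusted p = 0.0206, 0.000651 and 0.0199). The Gdf15 call was lost without wild type library 1, 4 or 5, and the Atf5 call without wild type library 2 or 5, with edgeR adjusted p of at most 0.0662.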

How the data were processed

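The authors deposited raw read counts per gene for 17 libraries, and these counts are the values used; a deposited table of normalized values was not used. Per the submitters' processing notes, tools were HTSeq, STAR, limma, edgeR and DESeq2 and the build GRCm38 (no roles or versions stated). Per the labels' protocols, libraries were made with a TruSeq kit, which does not mark strand, and sequenced single-end. From the counts, genes with low counts were removed with filterByExpr by group (17766 left), libraries were scaled by TMM (factors 0.892 to 1.15) and all 3 groups entered 1 quasi-likelihood fit in edgeR 4.0.16 (R 4.3.3, common biological coefficient of variation 0.312), tested on simulated data. Rows that name no gene were kept out. They hold, among others, reads with several alignments (23.4% to 31.8%), reads outside genes and reads ambiguous between genes (2.93% to 3.37%). Adjusted p is Benjamini-Hochberg over all genes tested, two-sided, called under 0.05; the SE is the log2 fold change divided by the square root of F. CPM use TMM-scaled sizes, and log2 CPM a prior count of 2. Symbols, coordinates and exon lengths came from GENCODE M21. Promoters came from RefSeq. Pair correlations used 100000 permutations within groups.

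Alternatives were RLE and upper-quartile scaling, no filter, DESeq2 1.42.0, limma-voom (limma 3.58.1), a fit on the 2 groups compared, a covariate of podocyte minus proximal tubule markers, and leaving out each library; 2 further ones, without saline libraries 1 and 3 and without atrasentan libraries 2 and 5, were chosen after seeing the data. Values of each library were named for called genes (first the 2 with the largest difference in each role) and for the namesakes Hspa1a, Hspa1b, Hspa5, Ddit3, Xbp1, Atf4, Hsp90aa1 and Hspd1; of other lists, the 3 called genes with the largest difference per comparison. The genes, lists and rules were chosen with earlier results of these data known. Ern1, Hyou1 and Hspb1 values, and those of wild type library 2, were singled out after they were seen.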

Additional observations from a re-analysis of the deposited data

Results flagged for a closer look

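Of 123 groups of libraries (the 39 genes and the mean of each arm, in 3 groups), 14 had 1 library whose gap to its nearest neighbour, as a share of the group's range, was above Dixon's 95% value. Chance gives about 1 in 20 groups if these are independent and their values normal. The genes vary together over the same libraries, so the 14 groups are not separate cases and cannot be set against that rate. In 10 of the 14 the library was wild type library 2, always as the highest of 5. It held 136 CPM of Hspa1a against 5.86 to 39.3 in the other wild type mice, 263 CPM of Dnajb1 against 88.1 to 128, 205 CPM of Dnaja1 against 68.2 to 84.7, and 265 CPM of Hsph1 against 36.5 to 92.6. It held 96.1 CPM of Hsp90aa1 against 30.2 to 45.0, 1898 CPM of Hsp90ab1 against 698 to 1033, and 104 CPM of Hspb1 against 31.9 to 50.5. Of the mitochondrial chaperonins it held 95.0 CPM of Hspd1 against 48.4 to 60.3 and 19.6 CPM of Hspe1 against 8.34 to 9.70, and of the ER factor Manf it held 181 CPM against 44.4 to 82.5.

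Atrasentan library 3 was the highest of 7 for Hsp90aa1 (59.7 CPM against 31.8 to 43.7) and Hspe1 (14.6 CPM against 7.35 to 9.81). Atrasentan library 6 was the highest of 7 for Eif2ak3 (62.4 CPM against 34.8 to 44.3). Wild type library 4 was the highest of 5 for Ern1 (14.8 CPM against 9.93 to 11.2).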

How the results depend on the processing

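No paired analysis was possible because the labels give no replicate numbers. In 26 other settings, atrasentan against wild type calls of Cryab, Bag3, Dnajc3, Eif2ak3 and Sel1l were kept in all; other calls were lost in 2 to 15. With the marker covariate 0 genes were called in saline against wild type (0 heat shock lower, 0 ER higher) and 0 in atrasentan against saline (0 heat shock higher, 0 lower), and so too without saline libraries 1 and 3 (0 for each). The cause was not tested. For atrasentan against saline, RLE gave 1 (0 heat shock higher), the 2 groups alone 5 (2 heat shock higher, 2 lower, 1 ER lower), DESeq2 2 and voom 0 heat shock higher, and voom 1 ER higher. Over all genes RLE called 5931 of 17766, the 2 groups alone 4925 of 16905, DESeq2 7058 of 24230 and voom 6463 of 17766. For saline against wild type, ER higher was 2 with DESeq2 and 0 with the 2 groups alone. For atrasentan against wild type, heat shock lower was 1 with no filter, and 1 without atrasentan libraries 2 and 5, which gave 7 ER higher. Over all genes 2756 of 33758 were lower with no filter. Without those libraries 2856 of 17633 were higher and 3060 lower.

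Leaving out 1 library gave 0 to 6 calls in atrasentan against saline (heat shock 0 to 2 higher and 0 to 3 lower, ER 0 to 2 higher and 0 lower), 1 to 3 in saline against wild type (heat shock 0 higher and 1 to 2 lower, ER 0 to 1 higher and 0 lower) and 6 to 10 in atrasentan against wild type (heat shock 1 to 3 higher and 1 to 2 lower, ER 3 to 6 higher and 0 to 1 lower). These fits tested 17694 to 18058 genes. Over all genes 1896 to 2842 were called higher and 2465 to 3496 lower in atrasentan against saline. In saline against wild type 89 to 1105 were higher and 110 to 418 lower, and in atrasentan against wild type 2069 to 2755 and 2023 to 2867.

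Over all genes, saline against wild type calls were 910, but 1 with the covariate, 54 without saline libraries 1 and 3, 1979 with DESeq2, 550 with voom and 1430 with the 2 groups alone; atrasentan against saline calls were 6001, but 1268 with the covariate and 2577 without saline libraries 1 and 3. Upper-quartile scaling gave 1897 higher and 3153 lower for atrasentan against wild type, beside 2619 and 2571, and 503 higher and 483 lower for saline against wild type, beside 570 and 340. DESeq2, which tested more low genes, had an all-gene median of -0.12 in atrasentan against saline.

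Signs that changed were all of uncalled differences. With the covariate, Hspa5 was -0.30 and Xbp1 -0.018 in atrasentan against saline, and Hspd1 -0.32, Xbp1 0.070 and Atf4 0.016 in saline against wild type. Without saline libraries 1 and 3 Hspa5 was -0.19 in atrasentan against saline, and Hspd1 -0.057, Xbp1 0.019 and Atf4 0.10 in saline against wild type. In atrasentan against wild type Ddit3 was 0.023 with voom, and Xbp1 was -0.042 with upper-quartile factors and -0.0024 without atrasentan libraries 2 and 5. Leaving out 1 library gave -1.04 to 0.18 for Hspa1a, -1.22 to 0.12 for Hspa1b, -0.41 to 0.16 for Hsp90aa1, -0.24 to 0.13 for Xbp1, -0.071 to 0.045 for Atf4 and -0.026 to 0.46 for Hspa5 in saline against wild type. It gave -0.23 to 0.081 for Hsp90aa1 and -0.025 to 0.34 for Hspa5 in atrasentan against saline, and -0.46 to 0.054 for Hsp90aa1, -0.19 to 0.25 for Ddit3 and -0.097 to 0.27 for Xbp1 in atrasentan against wild type. The signs of Hspa1a, Hspa1b, Hsp90aa1 and Xbp1 against wild type in saline mice turned without wild type library 2, and that of Hspa5 without saline library 2.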
